A study of Mus musculus with 20 samples.

Results

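The heat shock chaperones described here are 10 genes, HSF1 and chaperone genes that it can activate: Hspa1a, Hspa1b, Hspa8, Dnajb1, Hsph1, Hsp90aa1, Hsp90ab1, Hspd1, Hspe1 and Hsf1. They were chosen by gene symbol, with no threshold on a measured value, and all 10 symbols were found among the 24421 genes of the BMDC count table. The list was drawn up with changes under iBET already known, so the tests of iBET against DMSO below describe these genes and are not independent evidence about them. The label of cytosolic chaperones held for 7 of the genes by their known roles. Hspd1 and Hspe1 encode the mitochondrial chaperonin and its lid, and Hsf1 encodes a transcription factor.

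Murine bone marrow-derived dendritic cells (BMDCs) were grown from wild-type C57BL/6 bone marrow for 8 days with 40 ng/mL GM-CSF, and bulk RNA-seq was made from 5 mice, A to E. Cells of each mouse received ovalbumin alone (Ova) or ovalbumin bound in IgG immune complexes (IC), which cross-link Fcγ receptors, for 4 hours, in the presence of DMSO or of the BET bromodomain inhibitor I-BET151 (iBET) at 3.3 µM. The sources differ on timing: by the labels drug and stimulus were given at the same time, and by the study's methods iBET was added shortly before the stimulus. The 4 groups are named by drug and stimulus (DMSO Ova, for example) and hold 5 libraries each. Solvent is given as 5% in wells with DMSO alone and is not given for wells with iBET, so an effect of solvent content cannot be told apart from that of iBET. All groups hold the same wild-type mice, and no cell was gated by a marker that the labels name. Total counts per library were 16447491 to 29245150 (median 21764663). All 9 dendritic and mononuclear phagocyte markers passed the filter on low counts, with a summed level of 18938 to 25548 CPM in DMSO Ova, 21626 to 26506 in DMSO IC, 23211 to 29999.9 in iBET Ova and 25536 to 31914 in iBET IC. Flt3, among them, was at 0.121 to 4.94 CPM. Single markers moved both ways under iBET, with 1 of the 9 higher and 2 lower under either stimulus (edgeR adjusted p under 0.05). With the mouse as a block, 3 were higher and 3 lower with Ova, and 5 and 3 with IC. Shares over all genes tested are given below. The part of these marker shifts in the results below was not tested, and in such bulk libraries fewer cells of a type cannot be told apart from less RNA per cell. For other cell types, summed levels (CPM) did not exceed 0.726 CPM for B cell markers, 1.51 CPM for T and NK cell markers, 0.528 CPM for stromal markers (Col3a1 at 0 throughout), 48.7 CPM for neutrophil markers, 34.4 CPM for mast cell and basophil markers and 15.6 CPM for erythroid markers.

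Heat shock proteins bind unfolded or newly made proteins and help them to fold. HSP70 proteins work in cycles of ATP hydrolysis that J-domain proteins start and nucleotide exchange factors complete, and they pass some clients on to HSP90. HSF1 is held inactive by chaperones, is freed when unfolded proteins engage them, and then binds heat shock elements, arrays of short inverted units, near the starts of its target genes. Since HSF1 is controlled mainly at the level of the protein, the level of its mRNA says little about its activity.

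The start regions of the inducible HSP70 genes are shown because this pair carried the largest changes among the 10 genes, and because the copies are so alike. Sequences are from RefSeq, build GRCm38.p6, read 5′ to 3′ on the strand of the gene, and capitals mark a pair of heat shock element units. Hspa1a (ENSMUSG00000091971) lies on chromosome 17 from 34969190 to 34972156 and Hspa1b (ENSMUSG00000090877) on the same chromosome from 34956436 to 34959238, both on the minus strand. The 250 bases before each RefSeq start were chr17:34972157-34972406 for Hspa1a and chr17:34959239-34959488 for Hspa1b:
Hspa1a: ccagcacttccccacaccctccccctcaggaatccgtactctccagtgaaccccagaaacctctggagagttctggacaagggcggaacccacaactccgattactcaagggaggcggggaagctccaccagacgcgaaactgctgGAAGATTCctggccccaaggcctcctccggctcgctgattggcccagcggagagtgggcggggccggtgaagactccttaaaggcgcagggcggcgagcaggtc
Hspa1b: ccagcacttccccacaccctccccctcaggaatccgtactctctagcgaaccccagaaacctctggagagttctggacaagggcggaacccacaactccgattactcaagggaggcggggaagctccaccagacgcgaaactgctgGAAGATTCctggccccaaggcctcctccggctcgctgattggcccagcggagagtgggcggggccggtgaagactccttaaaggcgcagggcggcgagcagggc

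The promoters differed at 3 of 250 bases and held the same 8 letters, GAAGATTC, at -104 to -97 from the start, where -1 is the base before the first transcribed one. The longer arrays of exact units among the 10 genes are shown for comparison, since those genes changed less. Imperfect units were not marked in any of the sequences. The chaperonin genes Hspd1 (chromosome 1, 55077835 to 55088243, minus strand) and Hspe1 (chromosome 1, 55088132 to 55091307, plus strand) lie head to head on opposite strands, and the windows of both hold the same array, shown on the plus strand at chr1:55088053-55088082. It lies upstream of the RefSeq start of Hspe1 (55088148) and of 1 RefSeq start of Hspd1 (55087932), but downstream of the other Hspd1 start (55088243), and overlaps 1 annotated exon. In Hsph1 (chromosome 5, 149614287 to 149636376, minus strand), 1 pair lay upstream of both RefSeq starts (149636315 and 149636336), at chr5:149636351-149636380, and an array of 3 units lay downstream of them, at chr5:149636279-149636308. Both matches are inside the outermost GENCODE model of the gene, though the upstream stretch runs past its edge at 149636376. Each stretch overlaps 2 annotated exons:
Hspe1 and Hspd1: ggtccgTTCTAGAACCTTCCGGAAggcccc
Hsph1 upstream: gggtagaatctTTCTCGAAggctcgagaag
Hsph1 downstream: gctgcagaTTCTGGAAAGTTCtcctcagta

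RefSeq start windows of 300 bases (250 before the start and 50 from it) were found for 6 of the 10 genes: Hspa1a, Hspa1b, Dnajb1, Hsph1, Hspd1 and Hspe1. Pairs of units were searched as TTCNNGAA or GAANNTTC, each of which reads the same on both strands, and runs of 3 units as GAANNTTCNNGAA or TTCNNGAANNTTC, which overlap the pairs. A pair in either order stood in 15.06% of all 32851 windows, and a run of 3 units in 0.603%. Hsph1, Hspe1 and 1 of the windows of Hspd1 held a run of 3 units, Hspa1a and Hspa1b held 1 pair each, and neither window of Dnajb1 held these letters. Only exact letters were counted, so arrays with imperfect units were not searched for in any window. A match is a description of letters and not of a bound site.

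**Figure D1:**
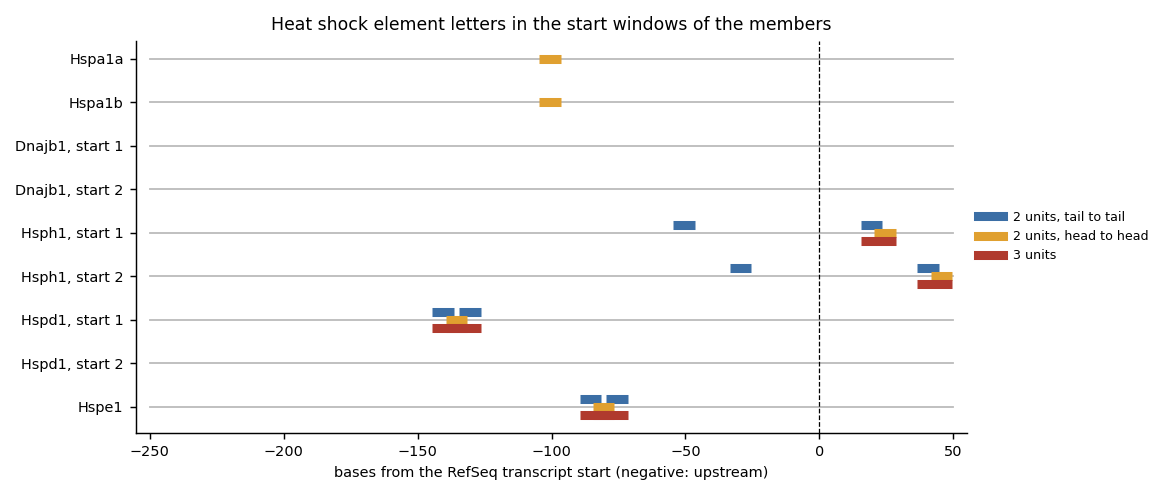
Positions of heat shock element letters in the 300-base start windows of the 6 genes with a RefSeq window (grey lines; x axis, bases from the transcript start; 1 line for each annotated start, 9 in all). Blue and yellow bars are pairs of units in either order and red bars are overlapping runs of 3 units, which appear in Hsph1, Hspd1 and Hspe1, while Hspa1a and Hspa1b have a single pair at the same place. Only exact matches are drawn.

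Levels are given first, per length, as CPM (reads of a gene over all reads of the library, scaled by TMM) divided by the kilobases of annotated exon. With DMSO and Ova the chaperones that every cell makes stood at the top: Hsp90ab1, the constitutive cytosolic HSP90, was at 435 ± 32.6 CPM per kb (SD, n = 5 mice) and Hspa8, the constitutive HSP70, at 384 ± 24.8. The libraries of this pair overlapped. Hspd1 (54.2 ± 8.03), the inducible HSP90 gene Hsp90aa1 (52.4 ± 7.17) and Hspe1 (45.8 ± 2.54 CPM per kb) came next, and each overlapped its neighbour. The remaining genes followed without overlap: Dnajb1 at 11.7 ± 0.153, Hsph1 at 4.71 ± 0.898, Hsf1 at 2.93 ± 0.27, Hspa1b at 0.842 ± 0.134 and Hspa1a at 0.292 ± 0.154 CPM per kb. The order among neighbours depended on the length used. Per kb of the longest transcript, Hspa8 (524) came just above Hsp90ab1 (518), and Hspe1 (70.0) above Hsp90aa1 (62.8) and Hspd1 (59.0), by their means in DMSO Ova.

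The order changed in the groups with iBET. With iBET and Ova, Hsp90aa1 came after Hsp90ab1 and Hspa8, at 107 ± 11.6 CPM per kb, above Hspd1 at 65.3 ± 5.8 with no overlap. Hspa1b, at 6.89 ± 1.61 CPM per kb, and Hspa1a, at 3.55 ± 2.86, moved up into the range of Hsph1 (5.81 ± 0.747), and Hspa1a overlapped Hsf1 (2.73 ± 0.286), which was then the lowest by its mean. Per kb of the longest transcript, Hsf1 was at 6.19 and Hspa1a at 3.55, so that Hspa1a remained the lowest and Hspa1b (6.89) lay between Hsph1 (8.86) and Hsf1. The summed level of the 10 genes was 3227 to 3833 CPM in the DMSO Ova libraries, 3257 to 3912 in DMSO IC, 4523 to 5016 in iBET Ova and 4535 to 5135 in iBET IC, so that libraries with iBET did not overlap those with DMSO.

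**Figure D2:**
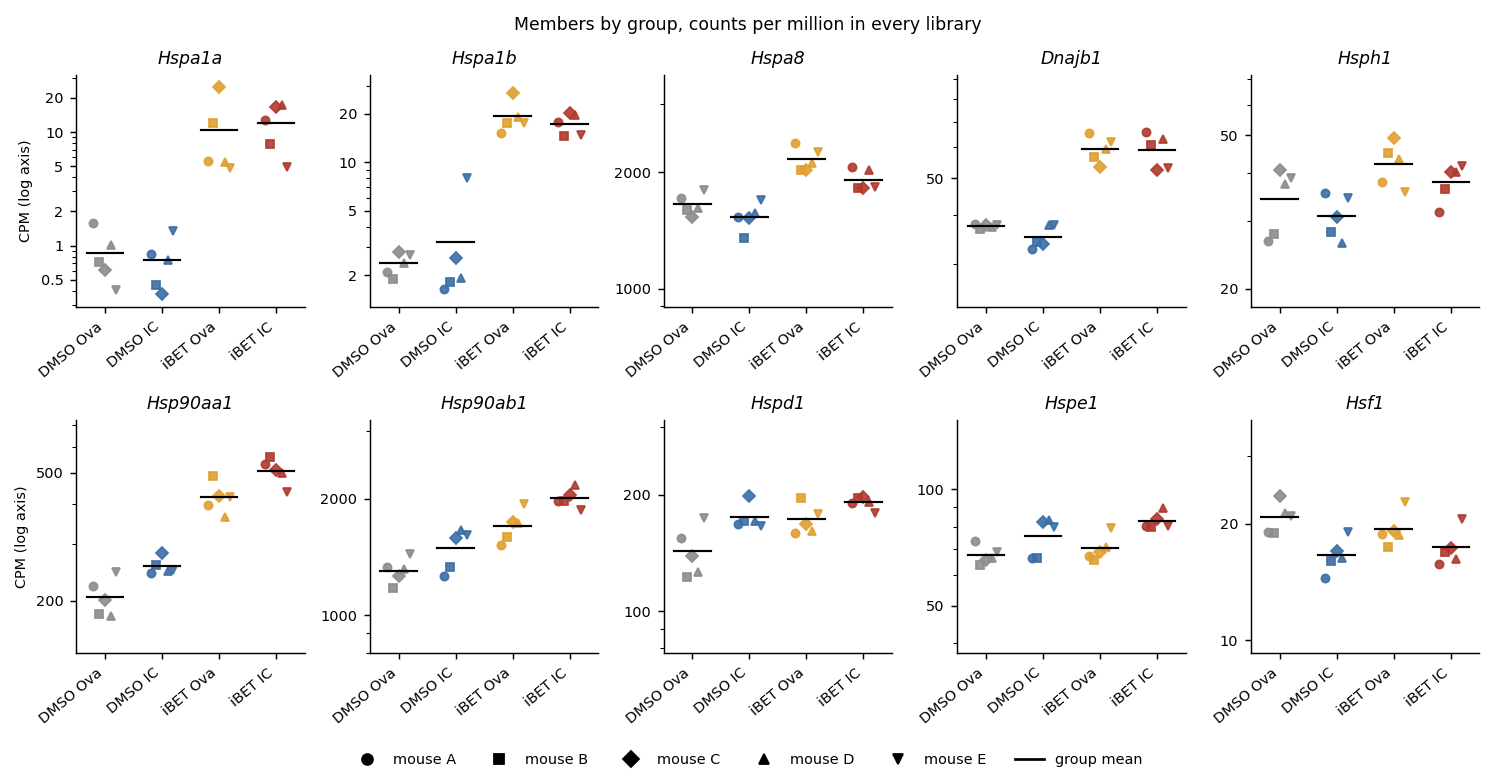
CPM of each gene in every library (log axis, with its own range in each panel), by group; marker shapes are mice A to E and black lines are group means. Hspa1a and Hspa1b lie higher with iBET in every mouse, with the DMSO IC library of mouse E at 8.04 CPM for Hspa1b, whereas Hspe1 and Hsf1 overlap between DMSO and iBET.

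iBET was compared with DMSO within each stimulus to ask how the chaperone transcripts differed with inhibition of BET proteins. With Ova, 8 of the 10 genes passed the test as higher and 0 as lower, where 27.7% of the 12465 genes tested passed as higher and 28.9% as lower. With IC, 6 passed as higher and 0 as lower, against 27.1% and 29.0% of all genes tested. Each call is an adjusted p under 0.05 from the quasi-likelihood test of edgeR, adjusted by Benjamini and Hochberg's method over all genes tested. The median log2 fold change of the 10 genes was 0.39 with Ova and 0.37 with IC, beside -0.0029 and -0.0054 for all genes tested. For 6 of the 10 genes, every iBET library lay above every DMSO library under each stimulus. Of all genes tested, 18.5% did so with Ova and 21.1% with IC, while 19.5% and 21.6% lay wholly below. With the DMSO IC library of mouse E left out, 8 genes passed with Ova and 7 with IC. Over all 12537 genes tested in that fit, 3450 passed as higher and 3616 as lower with Ova, and 3213 and 3504 with IC. All 10 genes passed the filter on low counts, and Hspa1a was at or above its level in 7 of the 10 DMSO libraries on their own.

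**Figure D3:**
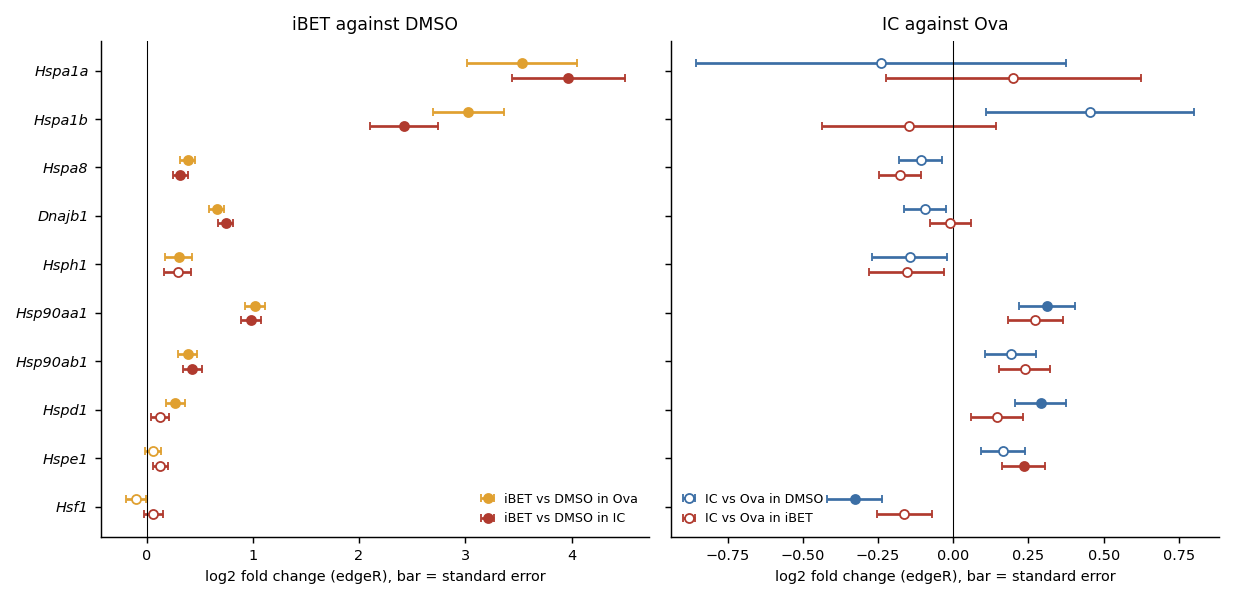
Log2 fold change with its standard error (bars) for each gene from edgeR, iBET against DMSO on the left and IC against Ova on the right; filled points have an adjusted p under 0.05. Hspa1a and Hspa1b lie between 2.42 and 3.97 on the left and Hsp90aa1 near 1, while the changes with IC on the right are small and few are filled.

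Hspa1a and Hspa1b encode the stress-inducible cytosolic HSP70, of nearly the same protein. In mice A to E, Hspa1a was at 1.58, 0.711, 0.612, 1.02 and 0.41 CPM in DMSO Ova and at 5.57, 12.1, 24.7, 5.45 and 4.81 CPM in iBET Ova. With IC it was at 0.848, 0.454, 0.373, 0.749 and 1.34 CPM with DMSO and at 12.9, 7.88, 16.7, 17.5 and 4.95 CPM with iBET. No DMSO library reached the lowest iBET library under either stimulus, and the libraries with iBET spread over a wide range. Hspa1a rose by a log2 fold change of 3.53 ± 0.52 (SE; adjusted p = 8.9e-06, edgeR) with Ova and of 3.97 ± 0.53 (adjusted p = 2.7e-06, edgeR) with IC, in 5 of 5 mice each time. Counts behind the DMSO values were 8 to 42 reads per library. Mouse C carried the highest Hspa1a value with iBET and Ova, and without that mouse the log2 fold change there was 2.85 (adjusted p = 0.00011, edgeR).

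Hspa1b was at 2.08, 1.9, 2.78, 2.38 and 2.67 CPM in DMSO Ova and at 15.3, 17.7, 27.0, 19.2 and 17.4 CPM in iBET Ova. In DMSO IC it was at 1.64, 1.81, 2.57, 1.91 and 8.04 CPM, and in iBET IC at 17.8, 14.5, 20.3, 19.6 and 14.9 CPM. The groups again did not overlap, but the DMSO IC library of mouse E stood above the other 4 of its group. The log2 fold change was 3.03 ± 0.33 (adjusted p = 2.2e-07, edgeR) with Ova and 2.42 ± 0.32 (adjusted p = 2.4e-06, edgeR) with IC. Without the library of mouse E in DMSO IC, the value with IC was 3.13 (adjusted p = 1.5e-10, edgeR). Only 20 of the 12465 genes tested had a larger log2 fold change than Hspa1a with Ova and 11 with IC, and 38 and 79 had a larger one than Hspa1b.

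The split between the copies is uncertain. Of all stretches of 150 bases in the Hspa1a transcript, 38.11% also occur exactly in Hspa1b, and 40.47% of those of Hspa1b occur in Hspa1a. How reads that match both copies were counted is not given in the sources used here. Summed into 1 feature, the pair was at 3.23 ± 0.403 CPM (SD, n = 5) in DMSO Ova and 29.9 ± 12.7 in iBET Ova, a log2 fold change of 3.19 ± 0.36 (adjusted p = 2.8e-07, edgeR). With IC the sum was 3.95 ± 3.04 CPM with DMSO and 29.4 ± 8.05 with iBET, a log2 fold change of 2.88 ± 0.35 (adjusted p = 7.8e-07, edgeR). The gene model Gm20481 shares 564 exon bases with Hspa1a on the opposite strand and has no row of its own in the count table, and the strand setting of the counting is not given in the sources used here.

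Hspa8, the constitutive HSP70, rose by far less. It was at 1715, 1598, 1529.8, 1622 and 1802 CPM in DMSO Ova and at 2376, 2032, 2023, 2118 and 2258 CPM in iBET Ova. With IC its libraries were at 1350.3 to 1699.5 CPM with DMSO and at 1819 to 2059 CPM with iBET. The groups did not overlap under either stimulus. The log2 fold change was 0.39 ± 0.07 (adjusted p = 0.00012, edgeR) with Ova and 0.32 ± 0.07 (adjusted p = 0.00081, edgeR) with IC, which is 1.31-fold and 1.25-fold.

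Among the partners of HSP70, Dnajb1, a J-domain protein that delivers clients and starts ATP hydrolysis, was the steadier. Its libraries were at 38.1, 36.9, 37.8, 37.4 and 37.9 CPM in DMSO Ova and at 65.2, 56.8, 53.4, 59.6 and 61.9 CPM in iBET Ova. With IC they were at 32.7, 34.1, 33.7, 37.8 and 37.8 CPM with DMSO and at 65.6, 60.7, 52.5, 63.1 and 53.0 CPM with iBET. Groups did not overlap, and Dnajb1 rose in 5 of 5 mice by 0.66 ± 0.07 (adjusted p = 1.2e-07, edgeR) with Ova and 0.74 ± 0.07 (adjusted p = 2.3e-08, edgeR) with IC on the log2 scale.

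Hsph1, the HSP110 nucleotide exchange factor that lets HSP70 release its clients, was less certain. It was at 26.7, 27.7, 40.6, 37.4 and 38.8 CPM in DMSO Ova and at 37.9, 45.0, 49.1, 43.4 and 35.7 CPM in iBET Ova. With IC the values were 35.5, 28.1, 30.7, 26.2 and 34.3 CPM with DMSO and 31.6, 36.2, 40.0, 40.2 and 41.5 CPM with iBET. The groups overlapped under both stimuli, and Hsph1 was higher with iBET in 4 of 5 mice each time. The log2 fold change was 0.30 ± 0.12 (adjusted p = 0.046, edgeR) with Ova and 0.29 ± 0.12 (adjusted p = 0.054, edgeR) with IC. With the mouse as a block, the adjusted p with IC was 0.031 (edgeR). With Ova the gene no longer passed when mouse A, B, C or D was left out (edgeR adjusted p = 0.081, 0.15, 0.062 and 0.078), and with IC it passed without mouse A (0.0099) and without the DMSO IC library of mouse E (0.045).

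HSP90 matures kinases, steroid receptors and other signalling proteins. Hsp90aa1, its more inducible cytosolic form, was at 222, 183, 201, 179 and 246 CPM in DMSO Ova and at 397, 489, 423, 365 and 421 CPM in iBET Ova. With IC it was at 244, 258, 281, 247 and 249.9 CPM with DMSO and at 529.9, 558, 509, 499 and 435 CPM with iBET. The groups did not overlap, and the change came to 2.03-fold with Ova and 1.98-fold with IC. Its log2 fold change was 1.02 ± 0.09 (adjusted p = 1.6e-08, edgeR) with Ova and 0.98 ± 0.09 (adjusted p = 2.6e-08, edgeR) with IC.

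Hsp90ab1, the constitutive form, was at 1334, 1174, 1263, 1315 and 1441 CPM in DMSO Ova and at 1519, 1592, 1740.0, 1733 and 1936 CPM in iBET Ova. With IC it ran from 1259.8 to 1659 CPM with DMSO and from 1871 to 2172 CPM with iBET. The groups did not overlap, and Hsp90ab1 rose by 0.38 ± 0.09 (adjusted p = 0.00074, edgeR) with Ova and 0.43 ± 0.09 (adjusted p = 0.00025, edgeR) with IC on the log2 scale.

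The mitochondrial chaperonin genes, which share the array of heat shock elements printed above, had the smallest estimates among the chaperones under both stimuli. Hspd1, the chaperonin itself, was at 154, 122, 139, 126 and 174 CPM in DMSO Ova and at 159, 196, 168, 161 and 179 CPM in iBET Ova, and passed the test with a log2 fold change of 0.27 ± 0.09 (adjusted p = 0.011, edgeR). Without mouse B it did not (0.20, adjusted p = 0.075, edgeR). With IC it was at 166 to 198 CPM with DMSO and 179.8 to 197 CPM with iBET, a log2 fold change of 0.13 ± 0.09 (adjusted p = 0.22, edgeR).

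Hspe1, which closes the chaperonin ring, was at 63.6 to 73.3 CPM in DMSO Ova and 65.5 to 79.4 CPM in iBET Ova (log2 fold change 0.06 ± 0.07, adjusted p = 0.50, edgeR). With IC it was at 66.6 to 83.4 CPM with DMSO and 80.1 to 89.4 CPM with iBET (0.13 ± 0.07, adjusted p = 0.14, edgeR). Neither difference passed the test, though each did under some of the alternative fits given below. The exons of Hspd1 and Hspe1 share 112 bases on opposite strands, and reads there cannot be told apart without the strand.

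Hsf1, the transcription factor, was at 19.0 to 23.6 CPM in DMSO Ova and at 17.5 to 22.8 CPM in iBET Ova. With IC it was at 14.5 to 19.1 CPM with DMSO and 15.8 to 20.6 CPM with iBET. Groups overlapped under both stimuli, and the log2 fold changes were -0.10 ± 0.09 (adjusted p = 0.36, edgeR) with Ova and 0.06 ± 0.09 (adjusted p = 0.58, edgeR) with IC.

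**Figure D4:**
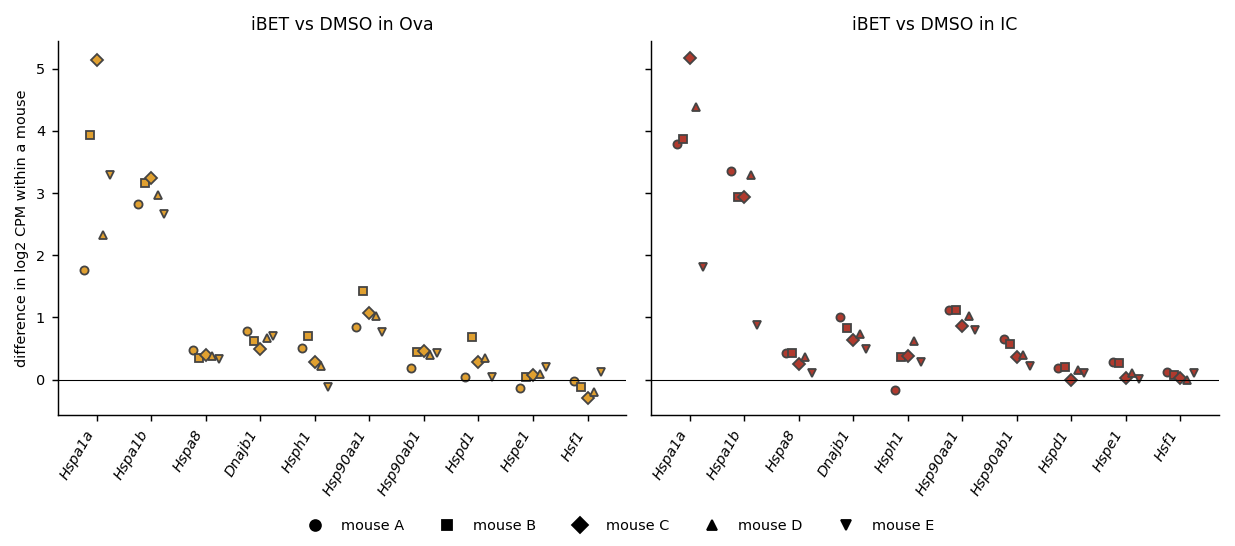
Difference in log2 CPM between the iBET and the DMSO library of the same mouse (y axis), for each gene and mouse (marker shapes), with Ova on the left and IC on the right. All 5 mice lie above 0 for Hspa1a, Hspa1b, Hspa8, Dnajb1, Hsp90aa1 and Hsp90ab1 on both sides, and Hspa1a spreads most, over 1.76 to 5.14 in the left panel and 1.82 to 5.18 in the right one.

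With Ova the Hspa1a difference varied more between mice than that of its copy. Within a mouse, the difference in log2 CPM with Ova was 1.76, 3.93, 5.14, 2.32 and 3.29 for Hspa1a in mice A to E, and 2.83, 3.16, 3.24, 2.97 and 2.67 for Hspa1b. With IC, mouse E had the smallest difference for Hspa1a (1.82), Hspa1b (0.88), Hspa8 (0.11), Dnajb1 (0.49), Hsp90aa1 (0.80), Hsp90ab1 (0.21) and Hspe1 (0.0099). For Hsph1, Hspd1 and Hsf1 another mouse had the smallest. Mice A to D had at least 2.94 for Hspa1b with IC.

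Cells given IC were compared with cells given Ova to ask how Fcγ receptor cross-linking changed these genes. With DMSO, 2 of the 10 genes passed the test as higher (9.59% of all genes tested) and 1 as lower (10.7%). Hsp90aa1 rose with IC by 0.31 ± 0.09 on the log2 scale (adjusted p = 0.022, edgeR; higher in 5 of 5 mice), and Hspd1 by 0.29 ± 0.09 (adjusted p = 0.021, edgeR; 4 of 5 mice). Hsf1 fell by 0.33 ± 0.09 on the log2 scale (adjusted p = 0.016, edgeR; lower in 5 of 5 mice). The libraries of both groups overlapped for all 3 genes. With the mouse as a block, 4 passed as higher, the further ones being Hsp90ab1 (adjusted p = 0.029, edgeR) and Hspe1 (0.048). That fit called more genes throughout, with 2284 of all 12465 genes tested passing as higher and 2471 as lower. Without mouse B, C or D neither Hsp90aa1 (adjusted p = 0.062, 0.14 and 0.090, edgeR) nor Hspd1 (0.070, 0.15 and 0.11) passed, and Hsf1 did not without mouse C or D (0.14 and 0.091).

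With iBET, 1 of the 10 genes passed as higher with IC (5.19% of all genes tested) and 0 as lower (6.63%). Hspe1 was at 67.0, 65.5, 69.0, 70.9 and 79.4 CPM in iBET Ova and at 80.5, 80.1, 83.6, 89.4 and 80.2 CPM in iBET IC, with no overlap, and rose by 0.23 ± 0.07 on the log2 scale (adjusted p = 0.039, edgeR). Of all genes tested, 4.57% were likewise higher with IC with no overlap. Hspe1 did not pass without mouse A, B, C or D (adjusted p = 0.084, 0.12, 0.17 and 0.17, edgeR). With the mouse as a block, Hsp90aa1 (0.28, adjusted p = 0.020, edgeR) and Hsp90ab1 (0.24, adjusted p = 0.0082) also passed as higher and Hspa8 as lower (-0.17, adjusted p = 0.015). Over all 12465 genes tested, 1766 passed as higher and 1835 as lower in that fit. At an unadjusted p under 0.05 without the block, 1 of the 10 genes was lower, Hspa8. Hspe1, Hsp90aa1 and Hsp90ab1 were higher at that threshold (unadjusted p = 0.0042, 0.0077 and 0.012, edgeR). Of all 12465 genes tested, 1781 were lower and 1531 higher there.

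These comparisons between stimuli depended on the scaling. With library size in place of TMM, the median of all genes tested was at -0.13 with DMSO and -0.12 with iBET, in place of -0.024 and -0.014. The calls over all genes then split into 584 higher and 2593 lower with DMSO, in place of 1196 and 1335, and into 313 and 2028 with iBET, in place of 647 and 827. Under that scaling no chaperone gene passed as higher with IC, and Hsf1, Hspa8 (-0.22) and Dnajb1 (-0.20 on the log2 scale) passed as lower with DMSO. Of all genes tested, iBET against DMSO gave 3014 higher and 4004 lower with Ova under library size, in place of 3449 and 3608.

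The interaction asks whether the effect of iBET differed between IC and Ova. By edgeR without a block, none of the 10 genes passed in either direction, and none had an unadjusted p under 0.05. Of all genes tested, 0.0241% passed there as higher and 0.0160% as lower. None of the 10 passed with the mouse as a block, where 50 of 12465 genes tested passed as higher and 52 as lower. None passed by DESeq2 either, where 9 and 15 of 12677 did. The largest estimates were -0.60 ± 0.45 for Hspa1b and 0.44 ± 0.75 for Hspa1a on the log2 scale, each with an edgeR adjusted p above 0.99. Without the DMSO IC library of mouse E the estimate for Hspa1b was 0.10. A p that misses the threshold does not show that the effects were equal.

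Other genes of protein folding were read from lists written with earlier results of these data known, and the lists share genes. Of 92 listed genes outside the 10, 85 were tested. Under iBET, Ova gave 40 higher and 11 lower (median log2 fold change 0.19), and IC 36 and 12 (0.14). The background shares of genes that passed without a block are those given above. With a block by mouse, 4175 of 12465 genes tested passed as higher and 4385 as lower with Ova, and 4065 and 4408 with IC.

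Co-chaperones and small heat shock proteins that HSF1 is known to regulate gave 11 higher of 15 tested with Ova (0 lower, or 1 under a block by mouse), and with IC 8 higher and 1 lower. Stip1, which links HSP70 to HSP90, was at 71.5 ± 4.48 CPM (SD, n = 5) in DMSO Ova and 134.6 ± 5.21 in iBET Ova, a log2 fold change of 0.91 ± 0.06 (adjusted p = 6.1e-11, edgeR), and rose by 0.85 ± 0.06 with IC (adjusted p = 1.6e-10). Ahsa2, a relative of an activator of HSP90 ATP hydrolysis, rose by 0.63 ± 0.08 with IC (adjusted p = 1.7e-06, edgeR). Hspa1l, the neighbour of Hspa1a, was at 0.0933 ± 0.0792 CPM in DMSO Ova, with 0 to 4 reads per library, and at 0.742 ± 0.164 in iBET Ova. Hspb1, Hspb8 and Serpinh1 were too low to test.

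HSP70 co-chaperones moved both ways, with Ova giving 11 higher and 5 lower of 26, and IC 9 higher and 4 lower. Stub1, a ubiquitin ligase that tags clients of chaperones, rose by 0.88 ± 0.07 with Ova (adjusted p = 6.7e-09, edgeR) and 0.81 ± 0.07 with IC, and the J-domain gene Dnajc7 fell by 0.76 ± 0.12 with Ova (adjusted p = 3.2e-05, edgeR) and 0.70 ± 0.12 with IC. For HSP90 co-chaperones, Ova gave 11 higher and 2 lower of 19 (5 lower under a block by mouse), and IC 10 higher and 4 lower. Fkbp5, an immunophilin that binds HSP90 in steroid receptor complexes, rose by 0.92 ± 0.08 with Ova (adjusted p = 8.7e-09, edgeR) and 1.10 ± 0.08 with IC (adjusted p = 7.9e-10).

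Other HSP70 family genes split into 7 higher and 0 lower of 10 with Ova, and 5 and 0 with IC. A block by mouse gave 8 higher and 1 lower with IC. Hspa5, the HSP70 of the endoplasmic reticulum, was at 541 ± 78.5 CPM in DMSO Ova and 1579 ± 179 in iBET Ova, a log2 fold change of 1.55 ± 0.10 (adjusted p = 1.2e-10, edgeR), and rose by 1.26 ± 0.10 with IC. Hspa2 rose from 3.33 ± 0.779 to 14.4 ± 1.02 CPM with Ova, a log2 fold change of 2.12 ± 0.14 (adjusted p = 2.5e-10, edgeR), and by 2.25 ± 0.15 with IC.

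The chaperonin TRiC with prefoldin, which folds actin and tubulin, gave 4 higher and 1 lower of 14 under either stimulus, and the median log2 fold change of this list was 0.037 with Ova and 0.023 with IC. A block by mouse gave 3 lower with IC. The prefoldin subunit Vbp1 rose by 0.57 ± 0.07 with Ova (adjusted p = 2.1e-06, edgeR), and Cct6a fell by 0.30 ± 0.07 with IC (adjusted p = 0.00092, edgeR). Mitochondrial folding factors and proteases gave 6 higher and 2 lower of 12 under either stimulus. Trap1, the mitochondrial HSP90, rose by 0.52 ± 0.05 with Ova (adjusted p = 1.1e-08, edgeR), whereas the protease subunit Clpp fell by 0.69 ± 0.09 with Ova (adjusted p = 1.9e-06, edgeR) and the protease Htra2 by 0.87 ± 0.13 with IC (adjusted p = 9.0e-06, edgeR).

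Of the other HSF genes and the HSF binding protein gene, 4 of 6 were tested, and 0 were higher and 1 lower under either stimulus. Hsf4 fell from 1.70 ± 0.313 to 1.13 ± 0.32 CPM with Ova, by 0.59 ± 0.21 on the log2 scale (adjusted p = 0.023, edgeR), and by 0.85 ± 0.21 with IC (adjusted p = 0.0021, edgeR). Hsbp1, whose product binds trimers of HSF1, was at 60.1 ± 7.26 CPM in DMSO Ova and 65.5 ± 6.49 in iBET Ova (adjusted p = 0.23, edgeR). A block by mouse gave 1 higher under either stimulus.

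**Figure D5:**
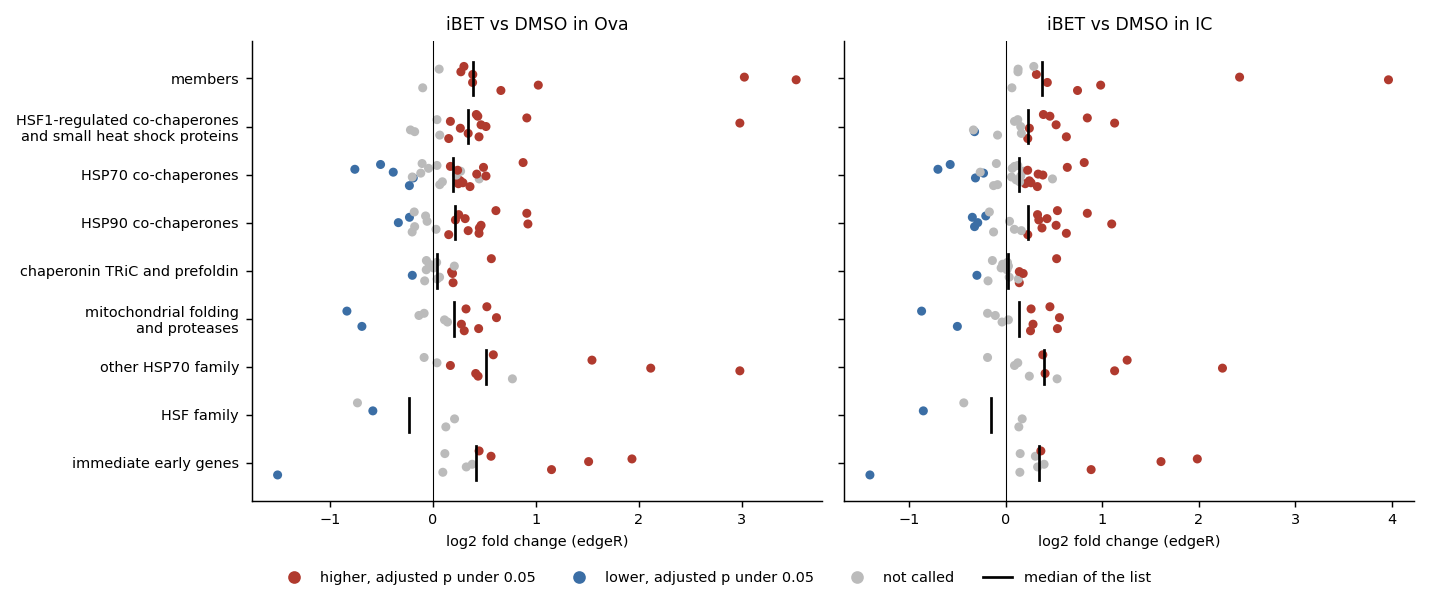
Log2 fold change of every tested gene (points) of the 10 chaperone genes and of the lists, iBET against DMSO with Ova on the left and with IC on the right; red and blue points have an edgeR adjusted p under 0.05, grey ones do not, and black bars are medians. The medians of the 10 genes are 0.39 and 0.37, and that of TRiC and prefoldin lies near 0 on both sides.

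Immediate early genes, which move with handling and stress of cells, were measured beside these. Of 10, iBET gave 5 higher and 1 lower with Ova, and 4 and 1 with IC (7 higher under a block by mouse). Their summed level was 639 to 1299.8 CPM in DMSO Ova, 911 to 1222 in DMSO IC, 1088 to 1718 in iBET Ova and 1129 to 1586 in iBET IC. These sums overlapped between groups, while some single genes, in either direction, did not overlap between DMSO and iBET. Ier3 had the smallest adjusted p, with 50.5 ± 9.2 CPM in DMSO Ova and 192.9 ± 23.9 in iBET Ova (log2 fold change 1.93 ± 0.14, adjusted p = 8.3e-10, edgeR). The part of handling in the chaperone changes was not tested.

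Genes with the pattern most like that of Hspa1a, Hspa1b, Dnajb1 and Hsph1 were ranked by Pearson's r between log2 CPM and the mean standardised log2 CPM of those 4, over all 20 libraries. Among the closest of the genes tested outside the 10 were Bzw2 (r = 0.971), Appbp2 (0.969), Ptpn11 (0.968), Gtf3c1 (0.967), Sema6c (0.967), Pknox1 (0.967) and Sin3a (0.967). All 20 points share 5 mice, and the differences between groups enter this correlation. By deviations from the group means, none of these genes was among the closest 8. Between the 10 genes themselves, the deviations from the group means over the 20 libraries ran closest for Hsp90aa1 with Hspd1 (r = 0.907) and for Hsp90ab1 with Hspe1 (r = 0.904). Hspa1a and Hspa1b, by contrast, had r = 0.43, and Dnajb1 with Hsph1 had the lowest value, -0.46. These are descriptions over libraries that share mice and normalization.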

How the data were processed

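Bulk RNA-seq of BMDCs was analysed for 20 libraries, 5 mice in each of 4 groups. Libraries were made from total RNA with the SMARTer stranded pico input kit and sequenced as read pairs. Per the labels cells were sorted into lysis buffer, and no gate is named. The authors trimmed reads (Trim Galore), aligned them to mm10 (HISAT2), counted them per gene (featureCounts) and deposited the counts. Versions, annotation, strand setting and the treatment of multi-mapping reads are not given in the sources used here. The signal values that the authors deposited beside them equal the counts divided by DESeq2 size factors within a relative difference of 2.0e-15. No column was left unassigned to a sample.

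Counts were fitted with edgeR 4.0.16 (R 4.3.3; filterByExpr, TMM, quasi-likelihood test, all 20 libraries, no block), with Benjamini-Hochberg adjustment over the 12465 genes tested and a threshold of 0.05. Standard errors were the log2 fold change divided by the square root of F. Log2 CPM used a prior count of 2. Rn45s, a ribosomal RNA gene, held 2.695 to 8.611% of counts. Alternatives used a replicate block, DESeq2 1.42.0, sva 3.50.0 (3 surrogate variables), limma 3.58.1 on the deposited values with pseudocounts of 1 and 8, and other scalings, filters and subsets of mice. The fits were tested on simulated data.

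The same mouse letter marks libraries from 1 animal in all 4 groups. Deviations from the group means correlated at 0.307 to 0.675 over the 30 pairs of libraries from the same mouse, so the letters pair the libraries. No 2 libraries of a group agreed within sampling noise. Without a block, the p-values measure the spread between the libraries of a group, which come from different mice, and leave the pairing unused. With the mouse as a block, they measure the spread that remains once the level of each mouse is fitted.

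The 10 genes and all lists were chosen with earlier results of these data known. Named genes were all 10, at most 2 of each list with the smallest adjusted p for iBET under each stimulus, and the 8 genes of most like pattern, of which 1 is not reported here. Marker, chaperone and immediate early lists came from general knowledge. Exon lengths and positions are from GENCODE and start sequences from RefSeq, both on GRCm38.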

Additional observations from a re-analysis of the deposited data

Results flagged for a closer look

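In each of the 40 combinations of a gene and a group, the gap of the highest and of the lowest library to its neighbour was divided by the range of the 5 libraries and compared with 0.71. Chance alone marks about 1 group in 20. The first of 2 such libraries was that of mouse E in DMSO IC, where Hspa1b was at 8.04 CPM, against 1.64 to 2.57 CPM in the other 4 mice (gap over range 0.856). Hspa1a was also highest there among the DMSO IC libraries, at 1.34 CPM. The other was Hspd1 in DMSO IC, at 198 CPM in mouse C against 166 to 171 CPM in the other mice (gap over range 0.841). No cause was tested for either.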

How the results depend on the processing

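Under iBET, Hspa1a, Hspa1b, Hspa8, Dnajb1, Hsp90aa1 and Hsp90ab1 kept their direction and their call with both stimuli under every alternative run, the deposited values with limma included. Over these alternatives, log2 fold changes with Ova and IC were 2.84 to 4.04 and 2.88 to 4.49 for Hspa1a, and 2.84 to 3.19 and 2.14 to 3.23 for Hspa1b. The bounds 2.88 and 3.19 belong to the summed pair, which stood as an alternative for both copies. Leaving out 1 mouse or library, Hspa1a with IC ran from 3.66 to 4.49 and Hspa1b with Ova from 2.96 to 3.11. Hsph1 lost its call with Ova with library size as the scaling, surrogate variables, only the 10 libraries compared, or mice C, D and E alone, and Hspd1 did with library size and in either subset of mice. Calls were also gained, all as higher. Hspe1 passed with surrogate variables (edgeR adjusted p = 0.036 with Ova and 0.0012 with IC). It also passed in mice C, D and E with Ova (0.036) and in mice A and B with IC (0.034). Hspd1 passed with IC under surrogate variables (0.029), and Hsph1 passed with IC under 10 of 20 alternatives. Numbers of genes that passed under iBET stayed within 1.5 times throughout. The subsets of mice (A and B, or C, D and E) were known from an earlier analysis of these data.

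Numbers with IC against Ova moved, and so did the calls over all genes tested. The replicate block gave 2284 higher and 2471 lower of 12465 with DMSO, and 1766 and 1835 with iBET. Mice A and B alone gave 276 and 224 of 12493 with DMSO, and 181 and 115 with iBET. Mice C, D and E alone gave 1852 and 1556 of 12534 with DMSO, and 567 and 621 with iBET. DESeq2 with the block gave 2237 and 2298 of 13720 with DMSO, and 1817 and 1723 of 13026 with iBET. Only the 10 libraries compared gave 790 and 976 of 12137 with DMSO. With iBET, DESeq2 gave 855 and 942 of 12332, and surrogate variables 1350 and 1427 of 12465. Library size without Rn45s gave 685 and 787 of 12467 there, and no filter on low counts 476 and 657 of 18234. Totals for library size are given above. For the 10 genes the numbers were as follows. With DMSO, 2 genes passed as higher: the replicate block, DESeq2 with that block and mice C, D and E alone each gave 4, and library size, only the 10 libraries compared and mice A and B alone each gave 0. As lower, in place of 1, library size gave 3, mice A and B 0, and mice C, D and E 2. With iBET, in place of 1 as higher, the replicate block, DESeq2, DESeq2 with the block and surrogate variables each gave 3, library size without Rn45s gave 2, and library size, no filter on low counts and either subset of mice gave 0. As lower, in place of 0, the block without or with DESeq2, library size and surrogate variables each gave 1. Leaving out 1 mouse gave 0 to 3 higher and 0 to 1 lower with DMSO, and 0 to 3 higher with iBET: without mouse B, C or D there were 0 higher in either, and without mouse A 3 with DMSO and 0 with iBET, and without mouse E 2 and 3. Over all 12426 to 12517 genes tested, those fits gave 568 to 1222 higher and 612 to 1255 lower with DMSO. With iBET they gave 284 to 552 higher and 359 to 625 lower.

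Of the values that changed sign, none passed the test as reported or under the alternative that turned it. With mice A and B alone the log2 difference for Hspe1 was -0.054 for iBET with Ova and -0.054 for IC with DMSO, and for IC it was -0.22 for Hspa1b and 0.21 for Hsph1 with DMSO and 0.061 for Dnajb1 with iBET. Hspa1a with DMSO was at 0.25 in mice C, D and E, and the sum with Hspa1b at 0.30 with DMSO and -0.018 with iBET. Interactions in mice A and B were 0.20 for Hspa1b, 0.042 for Hspa8 and 0.0096 for Hsp90aa1, and in mice C, D and E -0.052 for Hspa1a, -0.027 for Dnajb1, 0.26 for Hsph1, -0.12 for Hsp90ab1 and -0.11 for Hspe1. That of the sum was -0.32, and that of Hsph1 without Rn45s 0.0085. Leaving out 1 mouse or library, IC with DMSO ran from -0.74 to 0.069 for Hspa1a and -0.25 to 0.60 for Hspa1b, and IC with iBET from -0.14 to 0.64 for Hspa1a and -0.039 to 0.042 for Dnajb1. Interactions then ran from -0.058 to 0.94 for Hspa1a, -0.79 to 0.10 for Hspa1b, -0.11 to 0.14 for Hsph1, -0.12 to 0.018 for Hsp90aa1, -0.049 to 0.11 for Hsp90ab1 and -0.013 to 0.14 for Hspe1. The run without the DMSO IC library of mouse E was chosen after seeing the data. The causes of these shifts were not tested. Depth limits Hspa1a most, at 8 to 42 reads in libraries with DMSO.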
